A study of Mus musculus with 8 samples.

Results

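The genes described here are 6 transcription factors of dorsoventral or regional patterning in the neural tube and brain, Dlx1, Pax3, Olig3, Cux1, Sim2 and Vsx1, among 247 genes that the files name by 1 current symbol. Each of the 6 is described from the 1 probe set listed for it, of 45101 on the array; any other probe sets of these genes were not analysed here, so each value is that of 1 listed probe set and not of the gene as a whole. They were taken by their current gene symbol from the authors' deposited table of 330 probe sets that differed between wild type and VEGF120 forebrain, so that comparison chose them, and its values for them are given as a description with no test. The arrays were hybridised with RNA of forebrain microdissected from C57Bl/6 mouse embryos at E9.5, 4 from wild type and 4 from embryos with a knock-in of VEGF120 cDNA into the VEGF-A gene. The knock-in embryos make VEGF120 but none of the other isoforms of this blood vessel growth factor, VEGF164 among them, and the wild type embryos carry no knock-in. Whether an array stands for 1 embryo, a litter or a pool is not stated, so the spread between arrays may be technical in part. In RNA from whole tissue, fewer cells of a type and less RNA per cell cannot be told apart.

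The neural tube is patterned from opposite poles, by Sonic hedgehog from the ventral side and by bone morphogenetic proteins and Wnts from the roof plate, and the cells read these signals by switching on sets of transcription factors. Pax3, a paired-box and homeodomain factor, and Olig3, a basic helix-loop-helix (bHLH) factor, mark dorsal progenitors, and Pax3 also marks neural crest. Dlx1, a homeodomain factor, marks the ventral telencephalon, where it drives the differentiation of inhibitory neurons, and is also made in crest-derived mesenchyme of the face. Sim2, a bHLH factor with a PAS domain that pairs with Arnt proteins, is known from the ventral diencephalon. Vsx1, a homeodomain factor, is known from bipolar cells of the retina. Cux1 is a cut-homeodomain factor found in many dividing cells and, later, in upper-layer neurons of the cortex.

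In the authors' deposited table all 6 carry the terms "DNA binding" and "transcription regulator activity", held by 31 and 11 of its 330 probe sets. Dlx1, Pax3, Cux1 and Sim2 also carry the term for negative regulation of transcription by RNA polymerase II, as do 9 of the 330 in all. The probe set of Cux1 is annotated with 2 RefSeq transcripts and with Golgi transport terms. The Cux1 locus is also known to make a Golgi protein by alternative splicing, and the part of that transcript in the signal was not tested. By RefSeq gene order in GRCm38.p6, Dlx1 lies on chromosome 2 beside Dlx2, with an antisense gene, Dlx1as, overlapping it, and Vsx1 lies on the same chromosome. Pax3 is on chromosome 1, Cux1 on 5, Olig3 on 10 and Sim2 on 16.

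RefSeq promoters, running from 250 bases before to 50 after an annotated start, were at hand for 4 of the 6 genes, and those of Dlx1 and Olig3 are shown because these genes differed in opposite directions and their promoters differ in composition. Capitals mark matches, on either strand, to TATAAA, to TAAT (a core bound by many homeodomains), to CANNTG (the E-box of bHLH factors) and to ACGTG (the core bound by bHLH-PAS pairs); the marked matches do not overlap. The Dlx1 promoter is at chr2:71529195-71529494 on the plus strand and that of Olig3 at chr10:19356289-19356588 on the plus strand, both in GRCm38.p6.
Dlx1: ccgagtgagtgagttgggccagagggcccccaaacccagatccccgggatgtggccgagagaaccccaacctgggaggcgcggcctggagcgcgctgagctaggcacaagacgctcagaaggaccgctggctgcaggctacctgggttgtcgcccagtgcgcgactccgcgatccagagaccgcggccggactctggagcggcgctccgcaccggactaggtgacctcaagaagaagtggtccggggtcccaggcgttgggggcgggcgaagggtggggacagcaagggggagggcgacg
Olig3: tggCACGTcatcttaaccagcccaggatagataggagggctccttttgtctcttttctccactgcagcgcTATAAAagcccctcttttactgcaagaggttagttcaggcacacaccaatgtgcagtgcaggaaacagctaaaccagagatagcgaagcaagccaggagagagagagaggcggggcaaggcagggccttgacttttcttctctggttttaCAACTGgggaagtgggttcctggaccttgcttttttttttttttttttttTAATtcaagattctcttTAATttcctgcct
The Dlx1 sequence has 69.3% G and C and 27 CG pairs, more CG pairs than 84.5% of all promoters in the table, and holds none of the 4 motifs. The Olig3 sequence has 46.0% G and C and 4 CG pairs, and holds 1 TATAAA at 180 bases before the start, 2 TAAT, 1 CANNTG and 1 ACGTG. Of all 32851 promoters of this length, 13.6% hold TATAAA, 58.0% TAAT, 72.3% CANNTG and 19.6% ACGTG. The Cux1 promoter resembles that of Dlx1, with 65.0% G and C, 25 CG pairs and none of the motifs. That of Vsx1 lies between in G and C, at 55.7%, but its 5 CG pairs are close to the 4 of Olig3. It holds 1 TAAT and 2 CANNTG. No promoter was at hand for Pax3 or Sim2, and whether composition goes with direction was not tested.

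The 6 probe sets differed widely in brightness, which limits what each can show. Values are MAS5 signals, the Affymetrix summary of a probe set on a linear scale. Ranked by mean log2(signal + 16), 4 lay above the brightness filter at the 40th percentile of all 45037 probe sets that are not controls: Pax3 at percentile 75.7, Cux1 at 65.6, Olig3 at 58.7 and Dlx1 at 55.2. Sim2 lay just under the filter at percentile 39.7, and just over it, at 40.9, when ranked by mean signal. Vsx1 was near background, here a percentile under 20, at percentile 2.90 over the 8 arrays and between 5.40 and 10.4 on single arrays. The deposited signals have no detection calls, so a percentile says how dim a probe set was and not whether the gene was expressed.

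**Figure D1:**
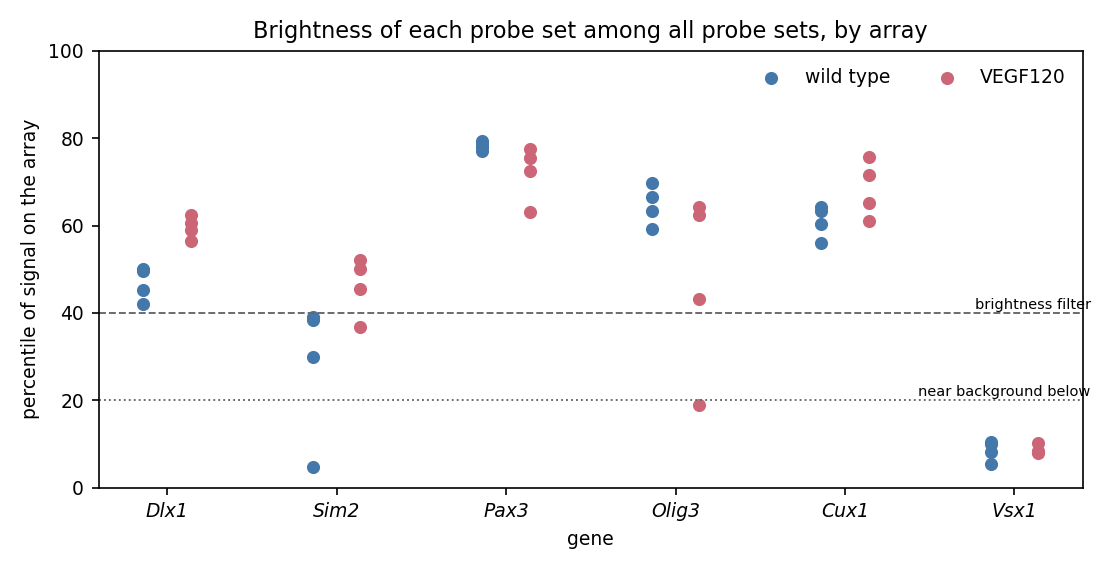
Percentile of each probe set's signal among all probe sets that are not controls (vertical axis), for 6 genes (horizontal axis), 1 point per array, wild type in blue and VEGF120 in red. The dashed line is the filter at the 40th percentile and the dotted line the 20th; Vsx1 lies under 20 on all 8 arrays, Sim2 under 40 on 5, with wild type replicate 4 at 4.88, and Olig3 drops to 19.1 on VEGF120 replicate 3.

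Across all probe sets limma called 0 of the 27022 above the filter at an adjusted p under 0.05 (0% of those tested; smallest adjusted p 0.465), so none of the 4 bright genes passed, and the 2 dim ones lay outside the test. At an unadjusted p under 0.05 limma found 2638 of 27022, 9.76%, of which 1714 were higher and 924 lower in VEGF120; leaving out wild type replicate 3 took the lower count to 510, and leaving out replicate 4 instead took it to 502. The split was 1165 and 1136 after quantile normalization and 602 and 3099 after median centring. Of the 4 bright genes all but Olig3, 3 in number, were under that unadjusted threshold; they were chosen on this comparison, so nothing is read from that count. The arrays of the genotypes did not overlap for 1351 of the tested probe sets, 5% of them, and for 1 of the 4 bright genes, Dlx1. Array medians averaged 58.1 ± 1.48 for wild type against 64.7 ± 2.68 for VEGF120 (SD over 4 arrays each). The median difference over the tested probe sets was 0.04 on the log2 scale, and centring the arrays lowers every difference by 0.12.

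Dlx1 read higher on every VEGF120 array than on any wild type array. Its signal was 48.3, 57.8, 41.1 and 58.7 on wild type replicates 1 to 4, and 86.0, 92.6, 113 and 110 on VEGF120 replicates 1 to 4. The lowest VEGF120 array thus lay well above the highest wild type array, and the groups remained apart after quantile normalization and after median centring. Mean signals were 51.5 ± 8.37 (SD, n = 4) for wild type against 100.5 ± 13.2 (SD, n = 4) for VEGF120, and the log2 difference was 0.79 ± 0.20 (SE), or 1.73-fold. With any 1 array left out the difference lay between 0.71 and 0.85. The spread within each genotype was small beside that gap, with a standard deviation of 0.18 in wild type and 0.17 in VEGF120 on the log2 scale. Dlx1 was listed for its fold and p between these genotypes, which favours a wide gap, a small spread and a stable difference. In the authors' deposited table, made with the PLIER summary, the mean log2 signal of Dlx1 was 4.78 in wild type and 5.54 in VEGF120, a 1.70-fold increase, so both summaries gave about the same size.

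Sim2, the other ventral factor, also read higher in VEGF120, but close to the filter. Its signal was 37.8, 36.2, 24.8 and 2.79 on wild type replicates 1 to 4 and 70.7, 62.2, 37.8 and 57.4 on VEGF120 replicates 1 to 4. The groups only just failed to overlap, since wild type replicate 1 read 37.79 and VEGF120 replicate 3 read 37.81, and they overlapped after quantile normalization and after median centring. The log2 difference was 0.91 ± 0.36 (SE), against 0.73 between the means of the authors' deposited table. Wild type replicate 4 read far under the other arrays, near background at percentile 4.88 of its array, and without it the difference was 0.57. The value added before taking logs matters for a probe set this dim: the difference was 1.55 with 1 added and 0.45 with 64 added.

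**Figure D2:**
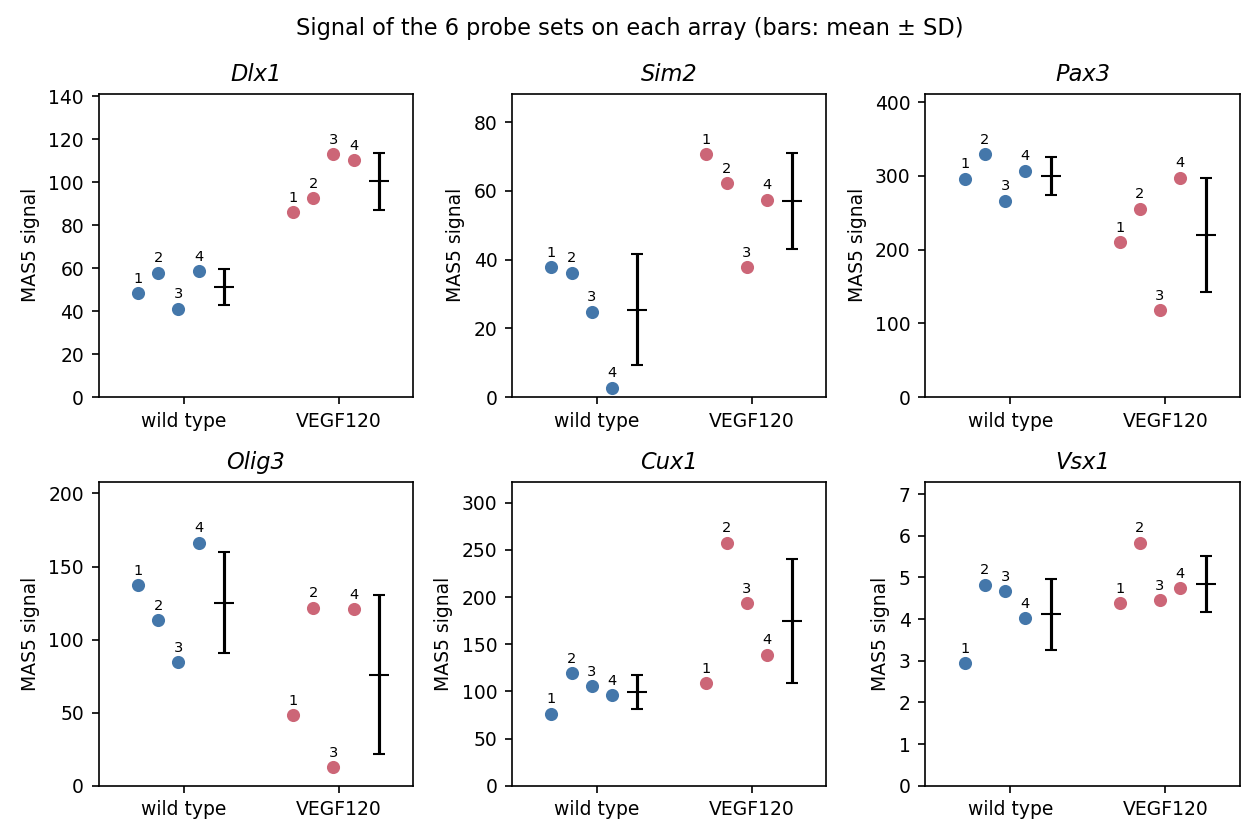
MAS5 signal (vertical axes, linear, from 0) of the 6 probe sets on each array, wild type in blue and VEGF120 in red, with replicate numbers; black bars are means ± SD of 4 arrays. Dlx1 separates the genotypes, with 41.1 to 58.7 against 86.0 to 113; Pax3 and Olig3 are lowest on VEGF120 replicate 3, and Vsx1 stays under 6 on every array.

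The dorsal factors read lower in VEGF120, unevenly between arrays. Pax3 read 297, 329, 266 and 307 on wild type replicates 1 to 4, and 210, 256, 118 and 298 on VEGF120 replicates 1 to 4. VEGF120 replicate 4 thus lay inside the wild type range, the other VEGF120 arrays lay below it, and replicate 3 lay lowest. The log2 difference was −0.48 ± 0.22 (SE), or 1.40-fold lower, and −0.23 without VEGF120 replicate 3. After quantile normalization the groups still overlapped and the difference was −0.54. Only after median centring did all VEGF120 arrays lie below all wild type arrays, with a difference of −0.61. Whether the groups overlapped thus rested on the scaling. The authors' deposited table gives a 1.54-fold decrease.

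Olig3 read 137, 113, 84.6 and 166 on wild type replicates 1 to 4, and 48.3, 122, 12.6 and 121 on VEGF120 replicates 1 to 4. VEGF120 replicates 2 and 4 were inside the wild type range, replicate 1 was below it, and replicate 3 was near background, at percentile 19.1 of its array. The log2 difference was −0.85 ± 0.42 (SE), or 1.80-fold lower, and −0.37 without VEGF120 replicate 3; the authors' deposited table gives a 1.87-fold decrease. The log2 standard deviation was 0.37 in wild type and 1.08 in VEGF120 for Olig3, and 0.12 and 0.54 for Pax3. For each dorsal gene the VEGF120 arrays were therefore more spread than the wild type arrays; the difference in spread was not tested.

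Pax3 and Olig3 varied together from array to array. VEGF120 replicate 3 was the lowest array for both and VEGF120 replicate 1 the next lowest. Among the 85 other bright named genes of the list, Olig3 was the one most like Pax3 and Pax3 the one most like Olig3 (Pearson r = 0.95 over 8 arrays, 0.94 for deviations from the genotype means; Spearman rho = 0.62). The likeness rests largely on those arrays, since r was 0.82 without VEGF120 replicate 3 and 0.40 over the 6 arrays left without VEGF120 replicates 1 and 3. Next in likeness to Pax3 were Fgf18, an FGF ligand, at r = 0.92, and Gprc5b, a membrane receptor, at 0.92. Next to Olig3 were Fgf18 and Txnip, a thioredoxin inhibitor, at 0.89 each. Fgf18, Gprc5b and Txnip were likewise lowest on VEGF120 replicate 3, with signals of 8.34, 51.3 and 142, where the remaining VEGF120 arrays read 45.9 to 76.4, 82.3 to 136 and 174 to 307. All of these genes were picked by the study on the same arrays, which favours such likeness, and the points share arrays and scaling.

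**Figure D3:**
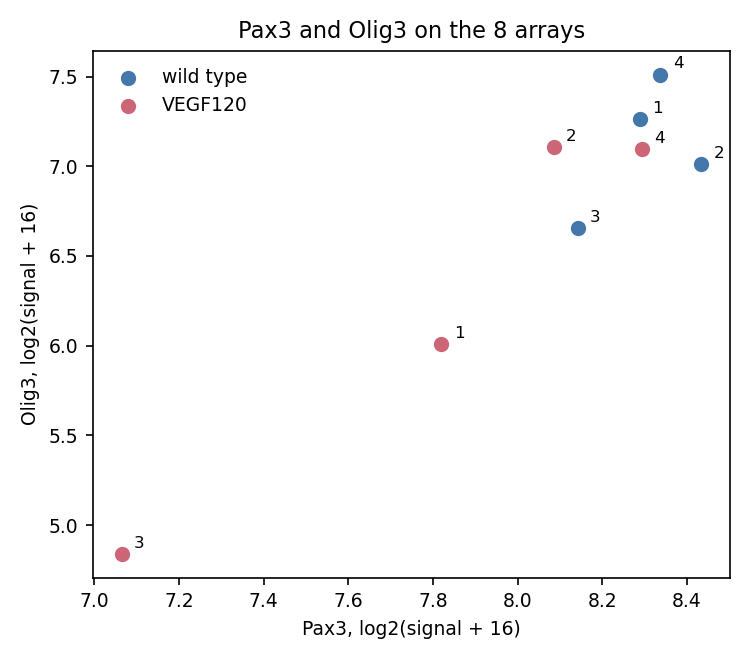
Log2(signal + 16) of Olig3 (vertical axis) against Pax3 (horizontal axis), 1 point per array with its replicate number, wild type in blue and VEGF120 in red. VEGF120 replicate 3, at 7.06 for Pax3 and 4.84 for Olig3, and VEGF120 replicate 1, at 7.82 and 6.01, lie apart from the other 6 arrays.

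Markers of another tissue varied over the same arrays. From a list of 14 head mesenchyme and neural crest markers, values are given for 2, the homeobox genes Alx1 and Prrx1 of the facial and head mesenchyme. Their summed signal spanned 426 to 687 over the wild type arrays and 796 to 1245 over the VEGF120 arrays. It was highest on VEGF120 replicate 3, at 1245, and next on VEGF120 replicate 1, at 1042, the arrays that read lowest for Pax3 and Olig3. Prrx1 alone read 331, 441, 354 and 395 on wild type replicates 1 to 4 and 636, 556, 903 and 560 on VEGF120 replicates 1 to 4. Alx1 read 95.3, 245, 111 and 146 on wild type replicates 1 to 4 and 406, 240, 342 and 264 on VEGF120 replicates 1 to 4. Its genotypes overlapped, and it was highest on VEGF120 replicate 1 and not on replicate 3. Among the wild type arrays, replicate 2 had the highest sum, at 687, and also the highest Pax3, at 329. These 2 markers were listed as higher in VEGF120 by the same comparison, which favours the higher sums there. Most of the 14 are not named by 1 symbol among the listed probe sets, and their values were not analysed. The part of Alx1 and Prrx1 in the values of Pax3, Olig3 and Dlx1 was not tested. Of the markers of forebrain neuroepithelium, hindbrain, endothelium, erythroid cells, surface ectoderm and neurons, 0 are named by 1 symbol among the listed probe sets. They were not analysed here, so the tissue label could not be set against its markers.

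Cux1 read higher on most VEGF120 arrays. Its signal was 76.2, 119, 105 and 96.1 on wild type replicates 1 to 4 and 109, 258, 193 and 139 on VEGF120 replicates 1 to 4. VEGF120 replicate 1 lay inside the wild type range and the other VEGF120 arrays above it. The log2 difference was 0.68 ± 0.23 (SE), or 1.60-fold, between 0.48 and 0.86 with 1 array left out, and the authors' deposited table gives a 1.54-fold increase. The gene most like Cux1 was Rcor2, a corepressor of neuronal genes (r = 0.94 over 8 arrays, 0.87 for deviations from the genotype means), whose VEGF120 arrays stood in the same order, with 669, 1646, 1291 and 894 on replicates 1 to 4. Bak1, a pro-apoptotic protein, came next at r = 0.88, and at 0.74 for deviations from the genotype means. For Dlx1 the most alike were the glycolytic enzyme Pfkl at 0.94, Creb3l4, a CREB-family factor, at 0.93 and the homeobox factor Six2 at 0.93. For deviations from the genotype means these were lower, 0.71 for Pfkl, 0.61 for Creb3l4 and 0.64 for Six2; all were listed for a difference between the genotypes, which the r over 8 arrays includes. Creb3l4 was dim in wild type, at percentiles 15.6 to 36.6 of single arrays, against 49.0 to 53.5 in VEGF120. It thus passed the brightness filter only through the VEGF120 arrays, and nothing is read from its likeness to Dlx1.

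Vsx1 gave no readable difference in these signals. It read 2.94, 4.82, 4.67 and 4.03 on wild type replicates 1 to 4 and 4.38, 5.83, 4.45 and 4.74 on VEGF120 replicates 1 to 4. All 8 arrays lay near background, and 3 of the 4 VEGF120 arrays were inside the wild type range. The log2 difference was 0.05 ± 0.15 (SE), and −0.07 after median centring. The authors' deposited table gives Vsx1 the largest fold of the 6, a 2.21-fold increase, with mean log2 signals of 0.79 in wild type and 1.93 in VEGF120, at percentile 5.76 of brightness within that table. The summaries thus gave different sizes for Vsx1, while for the 4 bright genes the log2 differences of the MAS5 signals and of the authors' means differed by at most 0.14.

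**Figure D4:**
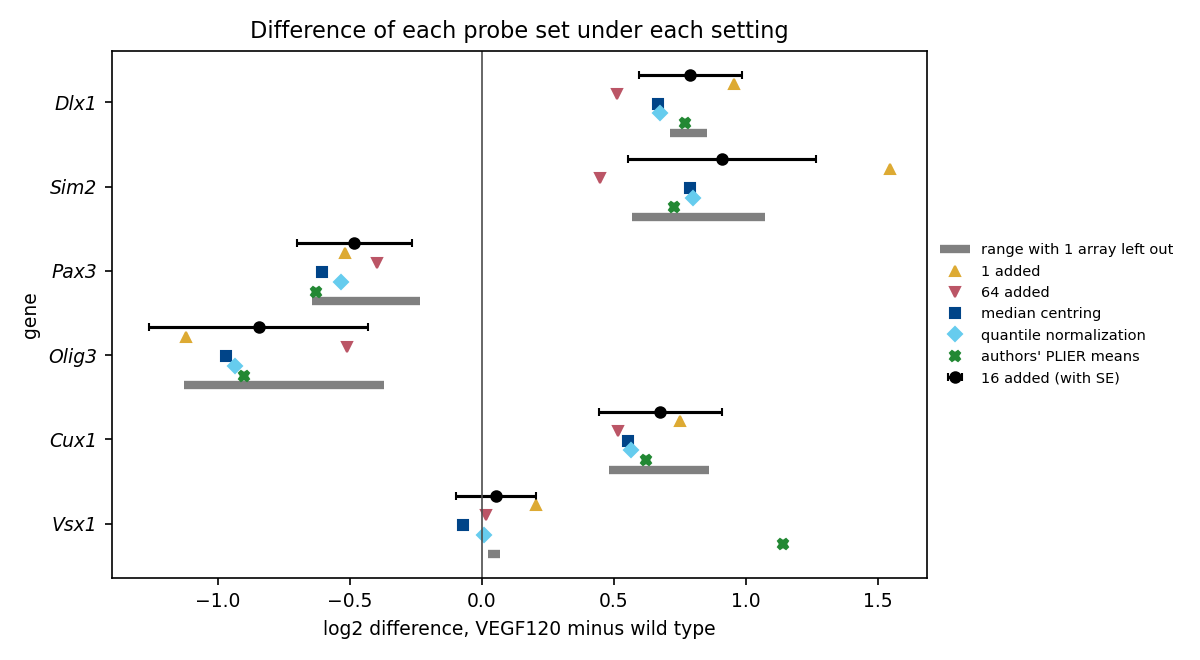
Log2 difference of VEGF120 minus wild type (horizontal axis) for each of the 6 genes (vertical axis); the black point is the value with 16 added, with its SE, other symbols are other settings and the authors' PLIER means, and the grey bar is the range with 1 array left out. Dlx1 stays between 0.51 and 0.96, Pax3 and Olig3 reach −0.23 and −0.37 when an array is left out, and the PLIER value of Vsx1, 1.14, lies far from its MAS5 values.

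Dlx1, Sim2 and Cux1 read higher and Pax3 and Olig3 lower, as in the authors' deposited table, which their selection largely fixes; the direction of Vsx1 was not settled. Among the folds of that table, whose threshold was 1.5, Cux1 and Pax3 lay just inside at 1.54 each. Among the differences of all tested probe sets Dlx1 lay at percentile 99.1, Cux1 at 98.2, Pax3 at 1.61 and Olig3 at 0.19. Selection by fold and p largely fixes these places too, so nothing is read from them. The lists of dorsal, ventral and related patterning factors hold 59 other genes, Dlx2, Gsx2, Shh, Nkx2-1, Gli3, Pax7 and Pax6 among them. Of these, 0 are named by 1 symbol among the authors' 330 listed probe sets, so their values were not analysed here. Whether the wider dorsal or ventral programme differed was therefore not tested.

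**Figure D5:**
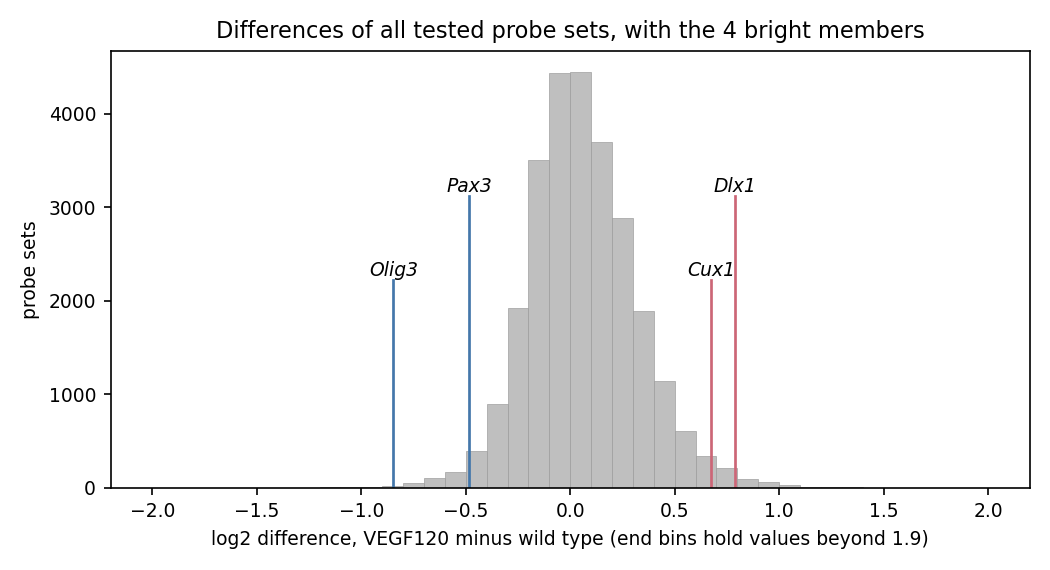
Number of probe sets (vertical axis) by log2 difference of VEGF120 minus wild type (horizontal axis, bins of 0.1) for the 27022 tested probe sets, with the 4 bright genes marked by lines. Dlx1 and Cux1, at 0.79 and 0.68, and Pax3 and Olig3, at −0.48 and −0.85, lie in the opposite tails of a distribution whose median is 0.04. Their selection by fold and p largely fixes this.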

How the data were processed

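The deposited value table gives each array an intensity per probe set, which the authors made as a linear MAS5 signal (Affymetrix Expression Console is named in the submitters' processing notes). The authors' comparison table gives an unsigned fold (ratio), unadjusted p-values and group mean log2 signals, made with PLIER and quantile normalization over 3 coded groups and kept where p-values reached 0.05 or less with 1.5-fold or more, per the file headers. What the codes stand for, wild type and VEGF120, was read in the title line of a deposited enrichment output. The third group was not analysed here, and 12 columns of per-array values that match no sample label were not used.

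Signals were taken as log2(signal + 16), which understates changes at low signal. Left out were 64 controls and those probe sets with a mean under the 40th percentile, a signal of 36.9, while dim members were fitted without that filter. Genotypes were compared with limma (3.58.1, R 4.3.3, eBayes with an intensity trend, Benjamini-Hochberg). The fit was tried on simulated arrays with noise drawn independently for each probe set. Such arrays carry no shift shared by a whole array, so they do not show how the fit handles one. Gene names came from the comparison table, where 251 probe sets have 1 symbol; all 6 members matched the RefSeq gene table. No arrays were duplicates (values coincided for 0.0044% of probe sets or fewer), so 8 samples were counted. Named genes are the 6 members, fixed marker and partner lists, and for each bright member the 3 named genes with the highest Pearson r; some genes that this rule takes are not reported here. The members and lists were chosen with earlier results of these data known. The dorsal and ventral list counts that were planned would need names for all probe sets and were not run. The number of arrays limits precision. Plots used matplotlib 3.10.9 (Python 3.11.15).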

Additional observations from a re-analysis of the deposited data

How the results depend on the processing

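Dlx1, Sim2, Pax3, Olig3 and Cux1 kept their direction under every added value, scaling and left-out array tried. With 64 added the difference of Dlx1 was 0.51; with 1 added that of Sim2 was 1.55 and that of Vsx1 0.20. Vsx1 turned to −0.071 after median centring, and the authors' PLIER means gave 1.14; at this brightness its direction is not settled. With 1 array left out, Pax3 ranged from −0.64 to −0.23, Olig3 from −1.13 to −0.37, Sim2 from 0.57 to 1.07 and Vsx1 from 0.02 to 0.07. The cause of these shifts was not tested.

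Past the adjusted threshold of 0.05, limma found 0 probe sets under the alternatives, except 1 when VEGF120 replicate 1 was left out (so 0 to 1); an unpaired equal-variance test and the ranking by mean signal were added after seeing the data, and that test called 0, with 2246 at an unadjusted p under 0.05. The unadjusted count ranged from 1610, without both arrays numbered 4, to 3701 after median centring, and was 1653 without wild type replicate 3. The labels do not say that a replicate number pairs arrays, and same-numbered arrays correlated over 0.1 in 1 of 4 pairs. Fitting the replicate block gave 2358 at an unadjusted p under 0.05 and 0 past adjustment, and the differences were unchanged by construction. In a fit without the brightness filter, the block gave an SE of 0.24 for Dlx1, 0.18 for Pax3 and 0.32 for Olig3. The same fit without the block gave 0.22, 0.22 and 0.44. Of 34 groups of 4 arrays examined, 0 held an array far from the other 3 by Dixon's test, where 1.7 would be expected by chance. With 4 arrays in a group this test has little power. The named genes were also listed for their fold and p between the genotypes, which favours a small spread. Nothing is therefore read from 0 against 1.7. Dixon's test passed even wild type replicate 4 of Sim2, so it does not show that no single array drives a value.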
